A study of Mus musculus with 16 samples.

Results

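The genes described here are 9 components of lytic cell death and of the caspase switch that governs it: the gasdermins Gsdmc2, Gsdmc3, Gsdmc4 and Gsdmd, the caspases Casp1, Casp4 and Casp8, and the necroptosis genes Ripk3 and Mlkl. They were taken from the deposited expression table by symbol, and all 9 were found among its 24421 genes. RNA was sequenced from colon tissue of C57BL/6 mice aged 8 weeks, in 4 groups of 4 libraries. F/F mice, whose genotype label is wild type, carry the NCoR1 F/F alleles, and DIEC mice, labelled ko, lack NCoR1 in intestinal epithelial cells. The sources used here do not give the promoter that drives the deletion. Mice of either genotype drank water (naive) or 2.5% dextran sulfate sodium (DSS), a sulfated polysaccharide that damages the colon lining, and the RNA dates from day 3 of DSS. Each library holds the combined RNA of 3 mice, so the spread given with each value is the spread between pools. The labels do not say more about how far the pools are independent.

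Gasdermins are pore-forming proteins held inactive by their own carboxy-terminal domain. Caspase-1, activated in inflammasomes, and caspase-11 (the product of mouse Casp4), activated by bacterial lipopolysaccharide, cut gasdermin D, whose freed amino-terminal part opens the plasma membrane, the step called pyroptosis. Caspase-8 starts apoptosis downstream of death receptors and holds back necroptosis, in which RIPK3 phosphorylates the pseudokinase MLKL so that MLKL breaches the membrane. In the gut lining these routes are known for expelling infected cells and, when uncontrolled, for barrier loss. The gasdermin C genes form a cluster of near-identical copies in the mouse and are known for expression in intestinal epithelium and for induction there by type 2 cytokines.

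Values are the deposited ones, reads per gene divided by 1 factor per library so that all libraries share the same total. A library held between 19957413 and 34733832 reads on genes, and the depth ranges of the 4 groups overlapped. Ncor1 was 3610 ± 125 (SD, n = 4) in F/F naive, 3803 ± 184 in F/F DSS, 1841 ± 96.1 in DIEC naive and 1538 ± 139 in DIEC DSS, with no overlap between the genotypes. The 8 general epithelial markers were all measured, and their summed value was higher in every DSS library (498110 to 562420) than in any naive one (412960 to 487200). Of these 8, 3 rose and 0 fell with DSS in F/F, 5 rose and 1 fell in DIEC, and 0 were called with the deletion in either state. Among all genes tested, 16.3% rose and 28.5% fell with DSS in F/F, and 12.3% rose and 40% fell in DIEC. The deletion gave calls for 2.23% of all genes in naive colon and 29.3% in DSS colon. All 8 markers of crypt base and cycling cells fell with DSS in each genotype, with a median log2 change of -2.199 in F/F and -3.31 in DIEC. Their sum went from 21638 to 32386 over the F/F naive libraries to between 5053 and 10373 with DSS, and from 22561 to 29082 over DIEC naive to between 5251 and 6306. The part of these shifts in the members' changes was not tested. Pancreatic acinar markers summed to 79.05 to 72109 in F/F naive and 3728 to 383830 in DIEC naive, but to at most 14.9 in any DSS library. Their part in the comparisons of naive with DSS colon was not tested. In whole tissue, fewer cells of a type and less RNA per cell cannot be told apart.

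Each gene was tested with limma in a single model over all 16 libraries, and a gene was called where its adjusted p was under 0.05. Log2 changes refer to log2(value + 1). Beside them stand the same changes after rescaling by the trimmed mean of M values (TMM), which centres the libraries on the bulk of their genes. TMM moved the median change over all genes by 0.10 for DSS in F/F, 0.25 for DSS in DIEC, 0.04 for the deletion in naive colon and 0.19 for the deletion in DSS colon, each upward.

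Gsdmd, the executioner of pyroptosis, was the member called in all 4 comparisons of a pair of groups, each time as a rise. Its values in the 4 libraries were 5502, 5568, 5018 and 5854 in F/F naive and 7641, 9015, 7298 and 7797 in F/F DSS. In DIEC they were 7659.75, 7888, 6829.65 and 8552 in naive colon and 12249.8, 13514, 11631 and 11304 in DSS colon. Every DSS library exceeded every naive library of its genotype, and every DIEC library exceeded every F/F library within naive colon and within DSS colon. Naive DIEC colon (7732 ± 711, n = 4) and F/F colon on DSS (7938 ± 748) had overlapping ranges.

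With DSS, Gsdmd rose by 0.53 ± 0.09 (SE) in log2 units in F/F (adjusted p = 6.4e-05, after TMM 0.63). In DIEC it rose by 0.66 ± 0.09 (adjusted p = 2.8e-06, after TMM 0.91). Deletion of NCoR1 went with a rise of 0.49 ± 0.09 in naive colon (adjusted p = 0.0027, after TMM 0.53) and of 0.62 ± 0.09 in DSS colon (adjusted p = 7.2e-05, after TMM 0.81). These 4 calls held in each of 16 refits that left out a library. The difference between the genotypes' responses to DSS was 0.13 ± 0.12, which was not called (adjusted p = 0.59). The authors' deposited table gives Gsdmd log2 fold changes of 0.64, 0.91, 0.53 and 0.81 for the same 4 comparisons, with adjusted p-values of 7.2e-07, 2e-10, 0.0043 and 1.1e-08.

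**Figure D1:**
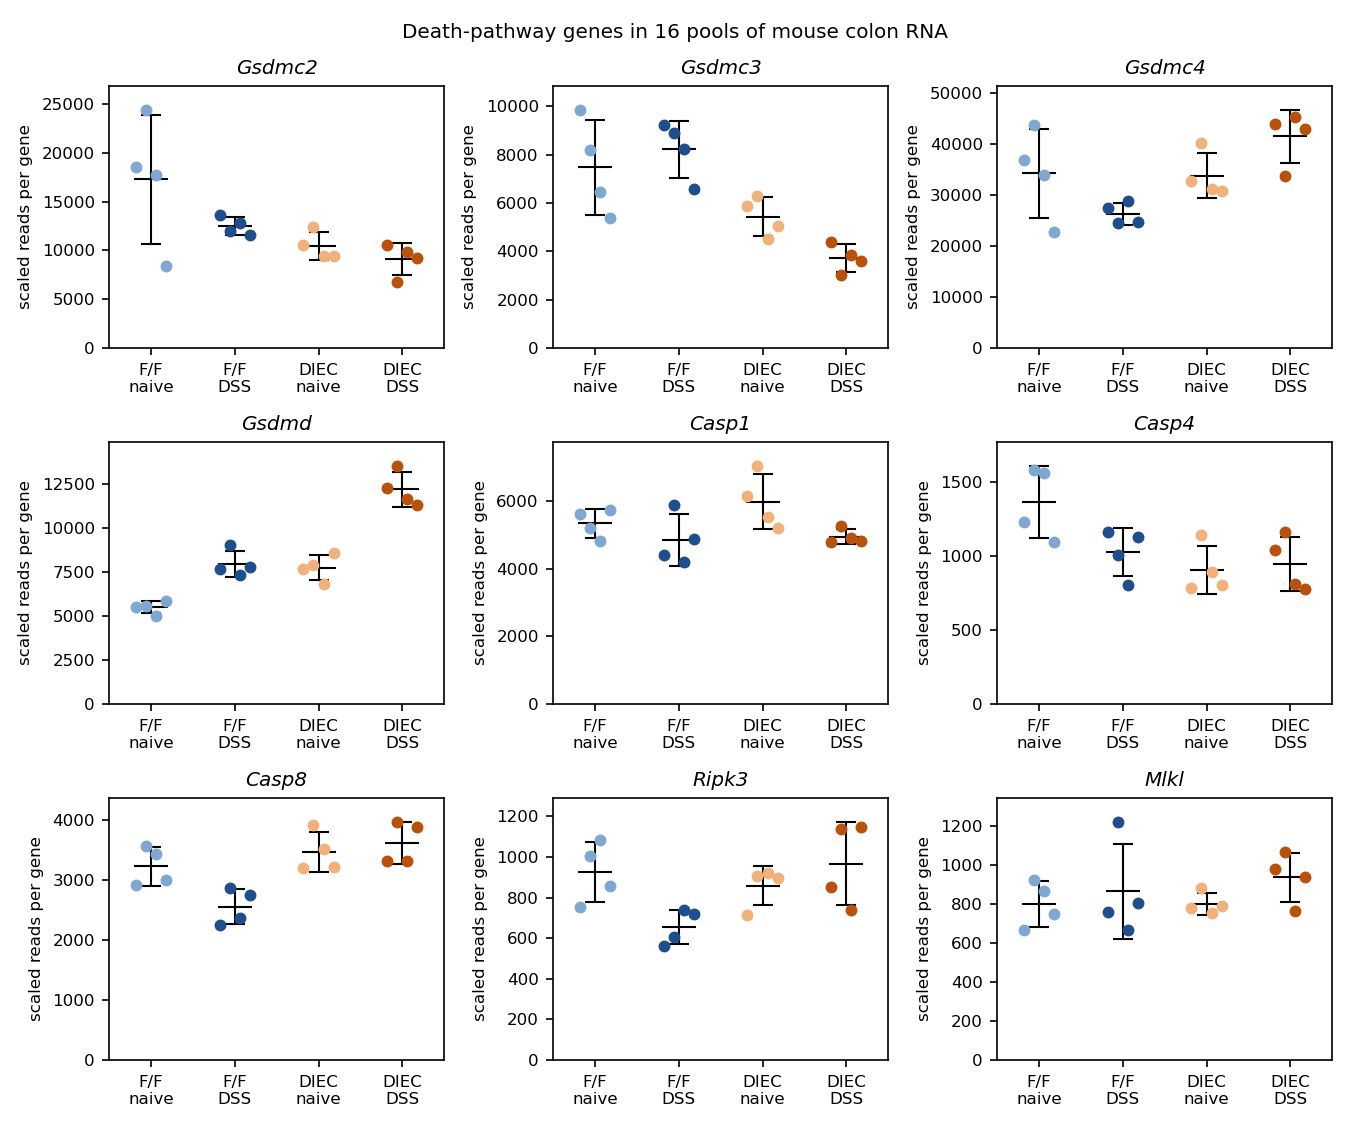
Deposited value of each of the 9 genes in every library, 1 panel per gene, with the 4 groups on the horizontal axis. Points are libraries, bars are group means and caps are ± SD (n = 4). Gsdmd has means of 5486 (F/F naive) and 12175 (DIEC DSS) and does not overlap along either the treatment or the genotype, while Gsdmc3 is lowest in DIEC DSS at 3707.

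Markers of more than 1 cell type shifted in the comparisons in which Gsdmd rose. For neutrophils, which also make gasdermin D, all 7 markers were measured and none was at 0 throughout. Their summed value ranged over the F/F libraries from 4107 to 5998 (naive) and from 6368 to 10428 (DSS), and over the DIEC libraries from 6073 to 12805 (naive) and from 19748 to 29534 (DSS). Single markers of the list did not all follow the sum: 2 rose and 2 fell with DSS in F/F (median -0.35), 4 rose and 2 fell in DIEC (median 1.44), 0 were called with the deletion in naive colon (median -0.60), and 3 rose and 0 fell with it in DSS colon (median 1.01). The 8 surface colonocyte markers, none at 0, summed to 320880 to 356060 and 328350 to 399430 over the naive and DSS libraries of F/F, and to 358500 to 478010 and 416160 to 546810 over those of DIEC. Of these, 3 rose and 3 fell with DSS in F/F, 3 rose and 1 fell in DIEC, 0 were called with the deletion in naive colon and 3 rose with it in DSS colon. Beside both lists, 44.8% and 52.3% of all genes were called with DSS in F/F and DIEC, with medians of -0.11 and -0.24. The deletion gave 2.23% called in naive colon (median -0.05) and 29.3% in DSS colon (3.28% higher and 26% lower, median -0.20). The 8 macrophage and monocyte markers, none at 0, were lower with DSS, summing to 7744 to 11506 and 5247 to 5587 in F/F naive and DSS and to 5896 to 8013 and 2862 to 5820 in the same states of DIEC. The part of these cell types in the Gsdmd change was not tested.

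Of the gasdermin C copies, Gsdmc4 held most reads and moved apart from Gsdmc2 and Gsdmc3. The 3 copies lie in tandem on the minus strand of chromosome 15, in the mm9 coordinates of the table: Gsdmc2 at chr15:63655901-63676731, Gsdmc3 at chr15:63689280-63710113 and Gsdmc4 at chr15:63722820-63743852. They are separated by 12548 and 12706 bases. Gsdmd lies on the plus strand of the same chromosome at chr15:75692769-75697834. The parent copy Gsdmc, no member of the set, was nearly silent, at 3.64 to 24.4 in all libraries.

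Reads could be shared among these copies. Their annotated transcripts were 96.9% identical between Gsdmc2 and Gsdmc3, 92.9% between Gsdmc2 and Gsdmc4 and 92.8% between Gsdmc3 and Gsdmc4. Of the 50-base stretches of the transcripts, 48.5% in Gsdmc2, 46.9% in Gsdmc3 and 39% in Gsdmc4 were also found in another gene, and of the 100-base stretches 28.6%, 30.5% and 20.2%. How the authors' counting placed such reads, and the read length, are not given in the sources used here. Values of single copies are therefore uncertain. Their sum, which is not touched by how counted reads were split among them, is given as well. Their shares are also given, but these depend on that split and carry the same uncertainty.

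Gsdmc4 was 36753, 43635, 33821 and 22632 in F/F naive and 27312, 24372, 28833 and 24676 in F/F DSS. In DIEC it was 32742, 40166, 31087 and 30720.25 in naive colon and 43921, 33753, 45122 and 42899 in DSS colon. All DIEC DSS libraries exceeded all F/F DSS libraries, whereas the groups of the other 3 comparisons overlapped. In DSS colon the deletion went with a rise of 0.65 ± 0.16 in log2 units (adjusted p = 0.0051, after TMM 0.84), called in every refit without a library. The DSS response itself was not called in F/F (-0.34, adjusted p = 0.082) or in DIEC (0.30, adjusted p = 0.12). After TMM the DIEC change, then 0.55, was called with an adjusted p of 0.0080. On the deposited scale it was called without F/F naive 4 (adjusted p = 0.032) or without DIEC DSS 2 (adjusted p = 0.0497).

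Gsdmc3 was 9852, 8199, 6451 and 5376 in F/F naive and 9209, 8895, 8225 and 6562 in F/F DSS. In DIEC it was 5891, 6303, 4501 and 5059.93 in naive colon and 4403, 3000.04, 3837 and 3589 in DSS colon. The 4 DIEC DSS libraries were the lowest of all 16. With the deletion in DSS colon Gsdmc3 fell by 1.15 ± 0.18 in log2 units (adjusted p = 3.5e-04, after TMM -0.96), again in every refit without a library. Its fall with DSS in DIEC, -0.55 ± 0.18 (adjusted p = 0.015), was not called after TMM (-0.30, adjusted p = 0.16). That call was also lost without DIEC naive 2 (adjusted p = 0.051) and without DIEC DSS 2 (adjusted p = 0.0501).

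Gsdmc2 was 18577, 24397, 17750.3 and 8425 in F/F naive and 13652, 11997, 12769 and 11618 in F/F DSS. In DIEC it was 10599.98, 12438, 9422 and 9444 in naive colon and 10522, 6792, 9817 and 9237 in DSS colon. F/F naive 4 was lowest of its group for all 3 copies, and for Gsdmc2 it fell below every other naive library. No Gsdmc2 comparison was called with all libraries. Without F/F naive 4, Gsdmc2 fell by 0.68 with DSS in F/F (adjusted p = 9.8e-04), by 0.95 with the deletion in naive colon (adjusted p = 0.0012) and by 0.48 with the deletion in DSS colon (adjusted p = 0.012), and Gsdmc4 fell by 0.53 with DSS in F/F (adjusted p = 0.0018).

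The same library was low in goblet cell markers. All 8 were measured and none was at 0. They summed to 578590 in F/F naive 4 and to 1083200 to 1393100 in the other F/F naive libraries. Over the other groups the sum ranged from 532010 to 671800 (F/F DSS), from 573090 to 907450 (DIEC naive) and from 701970 to 884070 (DIEC DSS). The part of goblet cell number in the gasdermin C values was not tested.

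Summed over the 3 copies, gasdermin C was 58967 ± 16787 (SD, n = 4) in F/F naive, 47030 ± 3570 in F/F DSS, 49593 ± 6506 in DIEC naive and 54223 ± 7266 in DIEC DSS. With all libraries no comparison of the sum was called. Its log2 changes were -0.28 for DSS in F/F (adjusted p = 0.21), 0.13 for DSS in DIEC (adjusted p = 0.58), -0.21 for the deletion in naive colon (adjusted p = 0.63) and 0.20 for the deletion in DSS colon (adjusted p = 0.43). What differed between the groups was how the reads fell on the copies. Without F/F naive 4, however, the sum fell by 0.49 with DSS in F/F (adjusted p = 0.0039).

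Gsdmc4 took 58.5% ± 2.53 (SD, n = 4) of the reads of the 3 copies in F/F naive, 55.9% ± 2.09 in F/F DSS, 67.9% ± 1.06 in DIEC naive and 76.5% ± 1.26 in DIEC DSS. Every DIEC library had a higher Gsdmc4 share than every F/F library. Gsdmc2 went the other way, from 28.6% ± 3.90 and 26.6% ± 0.727 in F/F naive and DSS to 21.1% ± 0.295 and 16.7% ± 0.935 in DIEC naive and DSS. Gsdmc3 took 12.9% ± 2.32, 17.5% ± 1.93, 10.96% ± 0.827 and 6.84% ± 0.473 in the same order.

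These shares do not depend on library scaling, but they do depend on how reads common to the copies were placed. Each share was compared by a two-sided exact permutation test, 12 tests in all, with a smallest possible p of 0.0286, or 0.0381 after adjustment. The 3 shares of a library are parts of the same total, so a gain of any copy is a loss of the others. The 3 results within a comparison are therefore not independent. The deletion in DSS colon reached that smallest value for all 3 copies, with differences of -9.92 percentage points for Gsdmc2, -10.6 for Gsdmc3 and 20.5 for Gsdmc4. In naive colon it reached it for Gsdmc2 (-7.44 points) and Gsdmc4 (9.41 points), while Gsdmc3 differed by -1.97 points (adjusted exact permutation p = 0.28). DSS in DIEC reached it for all 3, with -4.43, -4.13 and 8.55 points, and DSS in F/F for Gsdmc3 with 4.52 points. Taken per exon length, the same 9 of 12 comparisons passed.

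**Figure D2:**
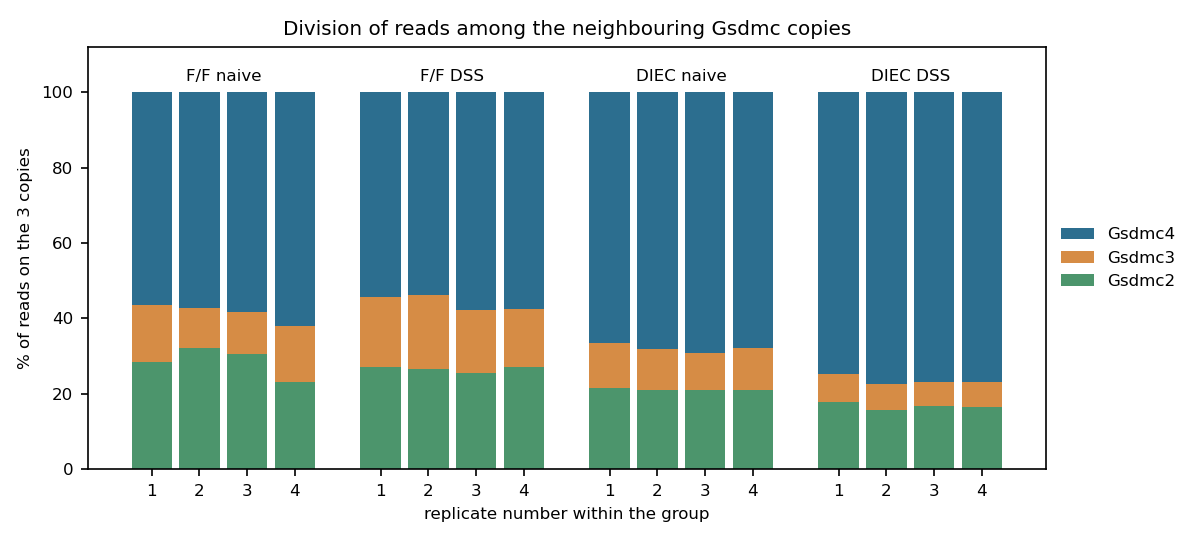
Share of the reads of Gsdmc2, Gsdmc3 and Gsdmc4 that fell on each copy, in percent, by group. Each bar is a library, with the copies stacked and the replicate number below it. Group means of the Gsdmc4 share are 55.9% to 58.5% in the F/F groups and 67.9% and 76.5% in DIEC naive and DIEC DSS. The mean Gsdmc3 share falls to 6.84% in DIEC DSS.

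Casp1 and Casp4, the inflammatory caspases, are neighbours on the plus strand of chromosome 9, at chr9:5298517-5307281 and chr9:5308849-5336791 in mm9, with 1567 bases between them. Neither had a called rise in any comparison, on the deposited scale or after TMM. Casp1 was 5346 ± 424 (SD, n = 4) in F/F naive, 4847 ± 762 in F/F DSS, 5992 ± 807 in DIEC naive and 4956 ± 224 in DIEC DSS. Groups overlapped in every comparison. Its single call, DSS in DIEC (-0.27 ± 0.10, adjusted p = 0.038), was gone after TMM (-0.02, adjusted p = 0.93). It was also lost without any of DIEC naive 1, DIEC naive 2, DIEC DSS 1, DIEC DSS 3 or DIEC DSS 4 (adjusted p 0.062 to 0.15). Without F/F DSS 2 its change with DSS in F/F, -0.25, was called (adjusted p = 0.047), against -0.15 (adjusted p = 0.25) with all libraries.

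Casp4 was 1227, 1581, 1561 and 1095 in F/F naive and 787, 1141, 890.13 and 801 in DIEC naive. The libraries F/F naive 4 and DIEC naive 2 made these groups overlap. The difference of -0.59 ± 0.16 in log2 units had an adjusted p of 0.075 and was not called. It was called by DESeq2 (adjusted p = 0.035) and, in limma, without F/F naive 4 (adjusted p = 0.040) or without DIEC naive 2 (adjusted p = 0.037). The authors' deposited table lists -0.57 with an adjusted p of 0.015. With DSS, Casp4 was 1026 ± 162 in F/F and 948 ± 183 in DIEC. Its log2 change with DSS in F/F was -0.41 (adjusted p = 0.051), and in DIEC 0.06 (adjusted p = 0.78). The F/F value fell on the called side when F/F naive 4, F/F DSS 1, F/F DSS 4, DIEC naive 2, DIEC DSS 2 or DIEC DSS 4 was left out (adjusted p 0.022 to 0.05).

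Casp8 and Ripk3, the protease that restrains necroptosis and the kinase that drives it, were called in the same comparisons on the deposited scale. In F/F both were lower with DSS, and in DSS colon both were higher with the deletion. These comparisons share the F/F DSS libraries, so they are not independent of each other. Gsdmc4 changed in the same directions (-0.34, not called, and 0.65), so the pattern was not particular to this pair. Neither Casp8 nor Ripk3 was called with the deletion in naive colon, where their changes were 0.10 and -0.10. They lie on different chromosomes, Casp8 on the plus strand at chr1:58852218-58904347 and Ripk3 on the minus strand at chr14:56403832-56407694 in mm9. Because they were called in the same comparisons, the 250 bases before their RefSeq starts are shown, 5′ to 3′ on the strand of the gene. In build GRCm38.p6 these are chr1:58802252-58802501 for Casp8 and chr14:55788858-55789107 for Ripk3. The starts were found by gene symbol and not matched to the mm9 gene models counted here. A window may therefore not precede the start of the counted model.
Casp8: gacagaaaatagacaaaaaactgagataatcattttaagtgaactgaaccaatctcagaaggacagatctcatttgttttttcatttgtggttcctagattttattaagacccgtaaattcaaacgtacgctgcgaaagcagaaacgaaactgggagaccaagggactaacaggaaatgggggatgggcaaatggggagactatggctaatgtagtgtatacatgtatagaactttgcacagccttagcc
Ripk3: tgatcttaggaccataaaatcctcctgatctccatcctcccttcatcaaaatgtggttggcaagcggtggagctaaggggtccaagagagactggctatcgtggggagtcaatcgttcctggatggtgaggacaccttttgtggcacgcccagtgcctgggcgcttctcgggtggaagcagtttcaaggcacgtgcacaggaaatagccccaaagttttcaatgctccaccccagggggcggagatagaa

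A set of 4 short motifs were looked for on both strands. They were GAAANNGAAA (the interferon-stimulated response element), TTCNNNGAA (the gamma-activated site), TTCNNNNGAA (the spacing bound by STAT6) and AGGTCA (the core of nuclear receptor elements). None of them occurred in either window, so no letters are capitalised. The same windows of the 32851 promoters in the RefSeq table held them in 2.98%, 7.02%, 5.85% and 14% of cases. Only these letters in these windows were searched.

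Casp8 was 2906, 3557, 3430.4 and 3000.09 in F/F naive and 2246, 2861, 2359.92 and 2747 in F/F DSS. In DIEC it was 3198, 3921, 3517 and 3215 in naive colon and 3308, 3957, 3311 and 3878 in DSS colon. The 4 F/F DSS libraries were the lowest of all 16. With DSS in F/F Casp8 fell by 0.34 ± 0.10 in log2 units (adjusted p = 0.0082). After TMM the change was -0.24 and not called (adjusted p = 0.084). In DSS colon the deletion went with a rise of 0.50 ± 0.10 (adjusted p = 0.0010, after TMM 0.69), called in every refit without a library. In naive colon it differed by 0.10, which was not called. Of the 50-base stretches of its transcript 5.05% also occur in the gene Gm20257.

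Ripk3 was 755, 1005, 1081 and 856 in F/F naive and 563, 606, 738 and 717 in F/F DSS. In DIEC it was 714, 904, 922 and 895 in naive colon and 849, 1135, 738 and 1146 in DSS colon. All F/F DSS libraries lay below all F/F naive libraries. Ripk3 fell by 0.49 ± 0.15 with DSS in F/F (adjusted p = 0.011, after TMM -0.39). In DSS colon it rose by 0.54 ± 0.15 with the deletion (adjusted p = 0.010, after TMM 0.73), although DIEC DSS 3, at 738.02, touched the highest F/F DSS library, at 738.19. Both calls held in every refit without a library.

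In DIEC neither gene was called with DSS on the deposited scale, at 0.06 for Casp8 (adjusted p = 0.63) and 0.15 for Ripk3 (adjusted p = 0.41). After TMM both rose, by 0.31 (adjusted p = 0.025) and 0.40 (adjusted p = 0.036), whereas scaling to the 8 epithelial markers, tried after the data were seen, turned the changes to -0.12 and -0.03. The difference between the genotypes' responses was 0.40 for Casp8 (adjusted p = 0.099) and 0.64 for Ripk3 (adjusted p = 0.084), and limma called neither, with or without TMM. DESeq2 called both, with adjusted p-values of 0.036 and 0.011, and limma called Casp8 without F/F DSS 2 (adjusted p = 0.048) and Ripk3 without DIEC DSS 3 (adjusted p = 0.043).

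Mlkl, the last step of necroptosis, lies on the minus strand at chr8:113835698-113862105 in mm9. It was 666, 924, 869 and 750.28 in F/F naive and 762, 1224, 668 and 809 in F/F DSS. In DIEC it was 781, 886, 756 and 789.91 in naive colon and 981, 1067, 767 and 942 in DSS colon. All groups overlapped and no comparison was called on the deposited scale. After TMM the change with DSS in DIEC, 0.47, was called (adjusted p = 0.033), where the authors' deposited table lists 0.48 with an adjusted p of 0.0014.

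Within each DSS group the highest Mlkl library was replicate 2. The same library had the highest summed value of the 17 interferon response genes, 88595 against 37900 to 42475 in the other F/F DSS libraries and 66690 against 28381 to 43787 in the other DIEC DSS libraries. Without F/F DSS 2 the deletion in DSS colon gave a log2 change of 0.32 for Mlkl (adjusted p = 0.048), against 0.15 (adjusted p = 0.52) with all libraries. The part of that library's interferon level in the Mlkl result was not tested.

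Counted over the 9 genes, DSS in F/F gave 3 calls, Gsdmd higher and Casp8 and Ripk3 lower, where 44.8% of all 18267 genes tested were called (16.3% higher and 28.5% lower). DSS in DIEC gave 3 calls, Gsdmd higher and Gsdmc3 and Casp1 lower, against 52.3% of all genes (12.3% higher and 40% lower). Neither count exceeds its background. After TMM the F/F count was 2 (Gsdmd and Ripk3), against 45.3%. The DIEC count was then 5, all higher (Gsdmd, Gsdmc4, Casp8, Ripk3 and Mlkl), against 51.4% called and 24.8% called higher.

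The deletion gave 1 call in naive colon, Gsdmd, against 2.23% of all genes (1.41% higher and 0.821% lower), and the same after TMM, against 2.41%. In DSS colon it gave 5, with Gsdmd, Gsdmc4, Casp8 and Ripk3 higher and Gsdmc3 lower, against 29.3% called in all, of which 3.28% were higher and 26% lower. After TMM the same 5 were called in the same directions, against 13.7%. In the test of the difference between the genotypes' responses to DSS limma called 0 of 9, against 3.63% of all genes, and after TMM also 0, against 0.635%. There 4 members (Ripk3, Casp8, Gsdmc4 and Gsdmc3) had an unadjusted p under 0.05, DESeq2 called 3 (Gsdmc4, Casp8 and Ripk3) and edgeR called 0. Without F/F naive 4 limma called Gsdmc4 (0.83, adjusted p = 0.017), and without F/F naive 1 Gsdmc3 (-0.86, adjusted p = 0.048).

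Groups failed to overlap for 3 members with DSS in F/F (42.8% of all genes), for 2 with DSS in DIEC (45.5%), for 1 with the deletion in naive colon (10.7%) and for 5 with the deletion in DSS colon (25%). The last 5 included Gsdmc2, which the test did not call, and left out Ripk3. Comparisons here share groups: DSS in F/F and the deletion in DSS colon, for example, both use F/F DSS.

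**Figure D3:**
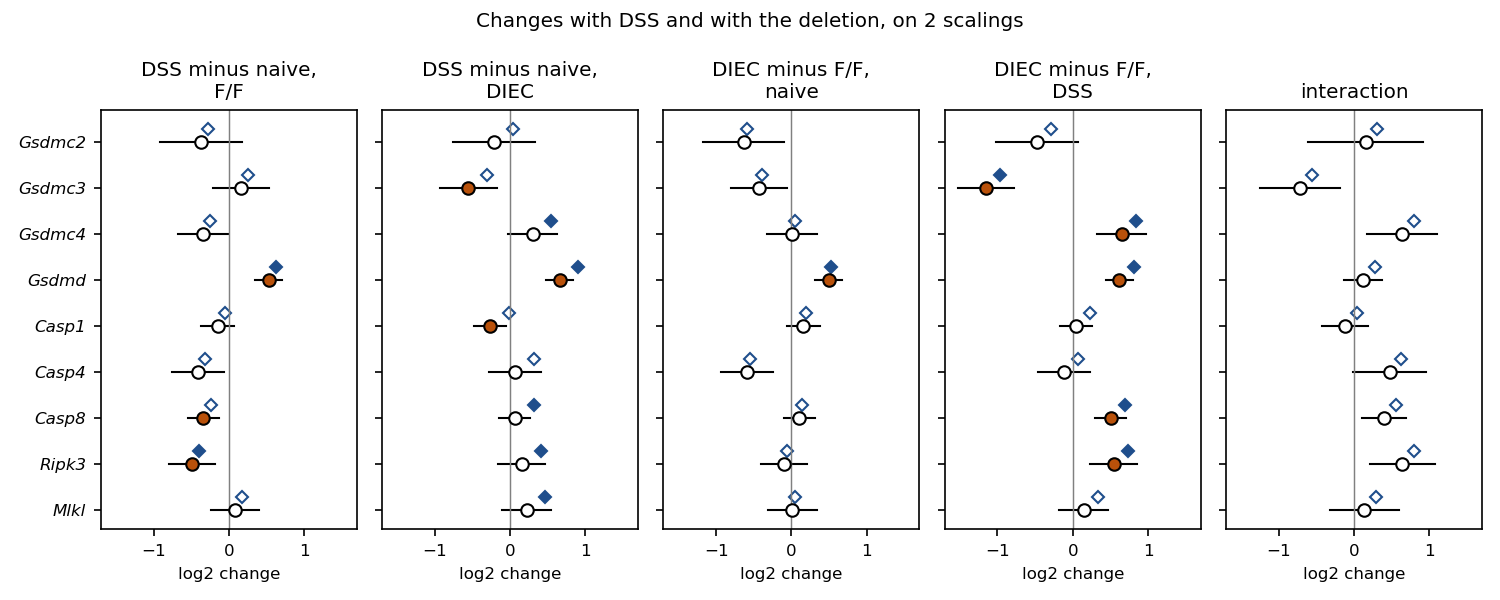
Log2 change of each of the 9 genes in the 4 comparisons of a pair of groups and in the interaction, the difference between the genotypes' responses to DSS. Circles are changes on the deposited scale with their 95% confidence interval, filled orange where adjusted p was under 0.05, and diamonds are changes after TMM rescaling, filled where called. Gsdmd lies to the right of 0 in the 4 panels of paired groups (0.49 to 0.66 on the deposited scale). In the interaction panel it is at 0.13 and not called. Gsdmc3 and Gsdmc4 part to -1.15 and 0.65 with the deletion in DSS colon.

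Levels can be compared between genes only per length. Per kilobase of exon, Gsdmc4 was highest in every group, with means of 16527 in F/F naive and 20012 in DIEC DSS. Gsdmc2 followed at 8380 in F/F naive, 6064 in F/F DSS and 5078 in DIEC naive. In DIEC DSS that place went to Gsdmd, at 6906 per kilobase against 4407 for Gsdmc2. Casp1 stood at 3229 to 3992 per kilobase, Casp8 at 992 to 1404 and Casp4 at 632 to 954. Ripk3 (336 to 495) and Mlkl (398 to 466) were lowest, and their order changed between groups.

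By likeness of profile over the 16 libraries, measured as the root mean square difference of centred log2 values, the genes nearest to Gsdmc4 among 12718 candidates were Gal3st2 (0.10) and Zg16 (0.13). Nearest to Gsdmd were Pllp and Sectm1b (both 0.12), to Mlkl Parp9 (0.12) and Psmb10 (0.15), to Gsdmc3 Hmcn1 (0.20) and Fgfr3 (0.22), and to Gsdmc2 Rasa4 (0.25) and Alyref2 (0.28). The lists around the other members were led by Hsd17b11 for Casp1, St3gal3 for Casp4, Abhd17b for Casp8 and Cystm1 for Ripk3.

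The other gasdermins were less abundant. Of 10 listed, 9 passed the filter on low values. Gsdma had group means of 57.8 to 71.3, and no comparison of it was called on the deposited scale. After TMM its change with DSS in DIEC, 0.56, was called (adjusted p = 0.010). Dfna5, the older symbol of Gsdme, the gasdermin cut by caspase-3, had means of 277 in F/F naive, 166 in F/F DSS, 236 in DIEC naive and 99.0 in DIEC DSS. It fell by 0.74 ± 0.13 with DSS in F/F (adjusted p = 1.4e-04), by 1.24 ± 0.13 with DSS in DIEC (adjusted p = 2.2e-07) and by 0.74 ± 0.13 with the deletion in DSS colon (adjusted p = 4.8e-04), and each fall was also called after TMM.

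The list of 21 inflammasome genes, which holds Casp1, Casp4 and the downstream Il18, Il1b and Ninj1 besides sensors and adaptors, included 1 that rose and 7 that fell with DSS in F/F, and 1 that rose and 11 that fell with DSS in DIEC. The median log2 changes of the list were -0.21 and -0.22, beside -0.11 and -0.24 over all genes tested, of which 44.8% and 52.3% were called. After TMM the counts were 2 and 5 in F/F and 5 and 4 in DIEC, against 45.3% and 51.4% of all genes called. Pycard, the adaptor that joins sensors to caspase-1, fell by 0.40 ± 0.09 in F/F (adjusted p = 0.0016) and by 0.84 ± 0.09 in DIEC (adjusted p = 4.3e-07). Naip2, a sensor of bacterial secretion systems, fell by 0.59 ± 0.07 in each genotype (adjusted p = 2.4e-06 and 5.3e-07). Both genes were also called lower after TMM. The riser in either genotype was Nlrp6, a sensor expressed in gut epithelium, with 0.54 ± 0.17 (adjusted p = 0.020) and 0.68 ± 0.17 (adjusted p = 0.0036).

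With the deletion, Il18, a cytokine matured by caspase-1, was the inflammasome gene called in naive colon, 1 of 21, against 2.23% of all genes. Its means were 3516 in F/F naive, 4030 in F/F DSS, 6749.61 in DIEC naive and 7834 in DIEC DSS. It rose by 0.93 ± 0.11 in naive colon (adjusted p = 7.6e-05) and by 0.96 ± 0.11 in DSS colon (adjusted p = 8.7e-06). In DSS colon 3 of 21 rose and 3 fell, 28.6% called, against 29.3% of all genes (3.28% higher and 26% lower). After TMM 4 rose and 0 fell, against 13.7% of all genes called. Nlrp9b (0.75 ± 0.12, adjusted p = 3.0e-04) and Naip1 (0.43 ± 0.08, adjusted p = 8.9e-04), both sensor genes, rose as well in DSS colon. The 3 that fell there, Ninj1 among them (-0.40 ± 0.09, adjusted p = 0.0022), were not called after TMM. NINJ1 ruptures the membrane after gasdermin pores have formed.

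Around Casp8, the death receptor list of 12 held 2 genes that rose and 1 that fell with DSS in F/F, 3 and 1 with DSS in DIEC, none called with the deletion in naive colon, and 2 and 1 with the deletion in DSS colon. After TMM these were 3 and 0, 5 and 0, and 3 and 0, where 45.3%, 51.4% and 13.7% of all genes were called. On the deposited scale 2.23% of all genes were called with the deletion in naive colon. The list's median log2 changes with DSS were 0.06 and 0.00 in F/F and DIEC, beside -0.11 and -0.24 over all genes, of which 44.8% and 52.3% were called with DSS and 29.3% with the deletion in DSS colon. Tnfrsf1a, the main TNF receptor, rose by 0.57 ± 0.09 in F/F (adjusted p = 5.5e-05) and 0.76 ± 0.09 in DIEC (adjusted p = 9.0e-07). Tnf, its ligand, had means of 88.1 in F/F naive, 107 in F/F DSS, 54.0 in DIEC naive and 189.69 in DIEC DSS. It rose by 1.72 ± 0.21 with DSS in DIEC (adjusted p = 1.4e-06), against 0.29 in F/F (adjusted p = 0.29). The difference between these responses was 1.44 ± 0.30 (adjusted p = 0.018, after TMM 1.59), and Tnf was the only gene of the 8 lists for which that test gave a call. Fadd, the adaptor that brings caspase-8 to the receptors, had a log2 change of -0.40 ± 0.10 with the deletion in DSS colon (adjusted p = 0.0082), which was not called after TMM (-0.20, adjusted p = 0.22).

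The 8 necroptosis core genes split. With DSS in F/F 2 rose and 4 fell, and in DIEC 3 rose and 3 fell, with medians of -0.07 and 0.19. Over all genes 16.3% rose and 28.5% fell in F/F and 12.3% rose and 40% fell in DIEC, with medians of -0.11 and -0.24. After TMM these counts were 2 and 3 in F/F and 5 and 1 in DIEC, against 45.3% and 51.4% of all genes called. Spata2, which recruits the deubiquitinase CYLD to TNF receptor complexes, rose by 0.54 ± 0.08 in F/F (adjusted p = 4.0e-05) and 0.38 ± 0.08 in DIEC (adjusted p = 6.5e-04), while Cyld itself fell by 0.32 ± 0.07 (adjusted p = 9.1e-04) and 0.46 ± 0.07 (adjusted p = 1.8e-05). Ticam1, the adaptor of Tlr3, rose in both genotypes (0.36 ± 0.11 and 0.46 ± 0.11, adjusted p = 0.014 and 0.0019). Tlr3 itself fell by 0.44 ± 0.11 in F/F (adjusted p = 0.0024) and was also called lower after TMM (-0.34, adjusted p = 0.027). Its means in DIEC were 1596 in naive colon and 1253 in DSS colon. Zbp1, a nucleic acid sensor that engages RIPK3, rose by 1.68 ± 0.42 with DSS in DIEC (adjusted p = 0.0044). In F/F its change, 0.87, was not called (adjusted p = 0.11). The difference between these responses, 0.81, was not called either (adjusted p = 0.46). With the deletion none of the 8 was called in naive colon and 1, Ripk3, in DSS colon, against 2.23% and 29.3% of all genes.

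Genes that restrain RIPK1 and the TNF complexes, 13 in all, also went both ways with DSS, with 5 up and 5 down in F/F and 4 up and 5 down in DIEC (medians 0.11 and -0.08). Over all genes 44.8% and 52.3% were called, with medians of -0.11 and -0.24. After TMM the counts were 7 and 3 and 7 and 4, against 45.3% and 51.4% of all genes called. Xiap, an inhibitor of caspases, fell by 0.59 ± 0.08 and 0.57 ± 0.08 (adjusted p = 7.7e-06 and 3.4e-06), and Tnfaip3, which encodes the ubiquitin editor A20, rose by 0.34 ± 0.10 and 0.56 ± 0.10 (adjusted p = 0.0062 and 5.6e-05). With the deletion in DSS colon 2 rose and 2 fell, against 3.28% higher and 26% lower over all genes. After TMM 3 rose and 0 fell, against 13.7% of all genes called. On the deposited scale Birc3, an inhibitor of apoptosis, rose by 0.30 ± 0.08 (adjusted p = 0.0086) and Tnfaip3 by 0.29 ± 0.10 (adjusted p = 0.027).

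In the mitochondrial and executioner list of 21, DSS gave 4 risers and 3 fallers in F/F and 5 and 6 in DIEC, and after TMM 9 and 3 and 7 and 3. The medians were 0.10 and -0.09, beside -0.11 and -0.24 over all genes. The shares called were 33.3% and 52.4%, against 44.8% and 52.3% over all genes (45.3% and 51.4% over all genes after TMM). Casp6, an executioner caspase, fell by 0.78 ± 0.08 in F/F and 0.86 ± 0.08 in DIEC (adjusted p = 1.2e-06 and 6.4e-08). Bcl2l1, which protects mitochondria, rose by 0.44 ± 0.08 and 0.69 ± 0.08 (adjusted p = 1.4e-04 and 4.4e-07). With the deletion in DSS colon 3 rose and 3 fell, and after TMM 5 and 0. Over all genes 29.3% were called there (3.28% higher and 26% lower), and 13.7% after TMM. There Pmaip1, which opposes such protectors, rose by 0.80 ± 0.18 (adjusted p = 0.0047) and Casp2 by 0.38 ± 0.09 (adjusted p = 0.0047). In naive colon none of the 21 was called, against 2.23% of all genes.

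**Figure D4:**
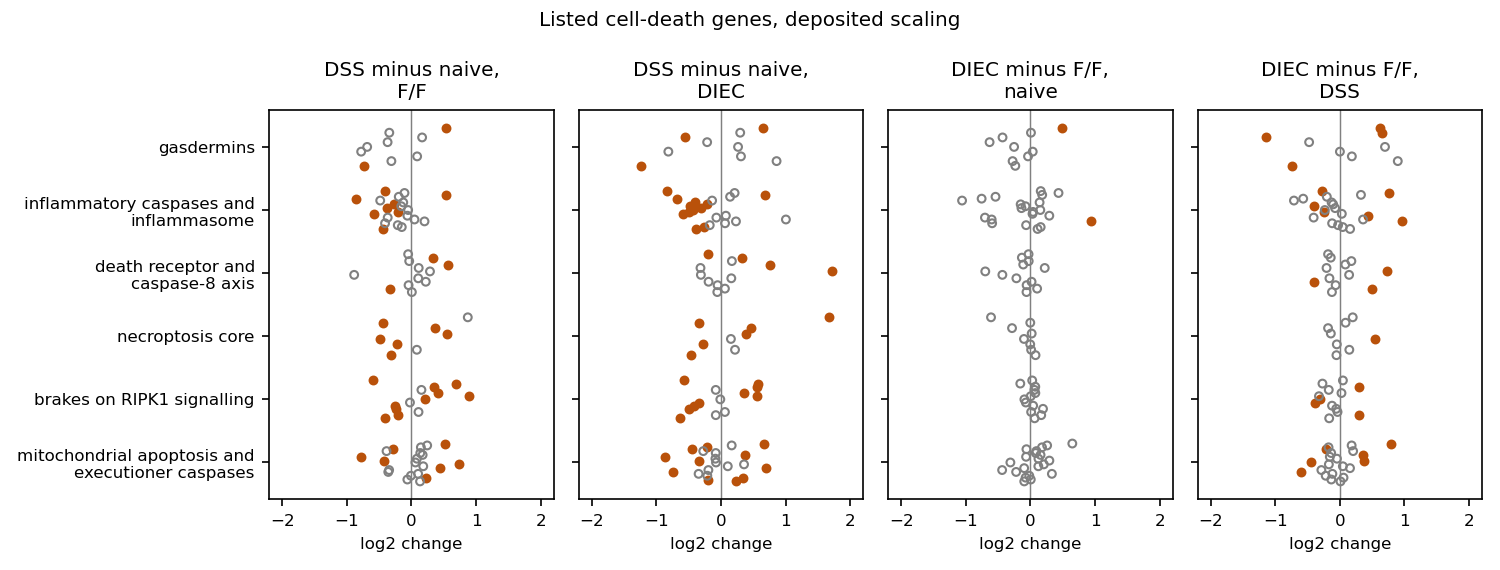
Log2 change of every tested gene of 6 cell death lists in the 4 comparisons of a pair of groups, on the deposited scale. Each point is a gene, filled orange where adjusted p was under 0.05 and open grey otherwise. With the deletion in naive colon the 2 filled genes are Gsdmd and Il18, while DSS shows called genes on either side of 0 in most lists.

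In the type 2 cytokine axis, known to induce gasdermin C genes, 0 of 13 genes rose and 5 fell with DSS in F/F, and 1 rose and 3 fell in DIEC, with medians of -0.51 and -0.20. Over all genes 28.5% and 40% fell, and the medians were -0.11 and -0.24. After TMM the counts were 1 and 4 and 2 and 0, against 45.3% and 51.4% of all genes called. The cytokines Il4, Il5, Il13 and Il25 were near the floor, with group means of at most 7.02. Il13, among the genes that fell in F/F, had means of 3.04 in F/F naive and 0.46 in F/F DSS. With the deletion in naive colon Il13ra1, a receptor subunit for interleukin 13, rose by 0.46 ± 0.09 (adjusted p = 0.0070). Retnlb, a goblet cell product induced by interleukin 13, fell by 4.57 ± 0.88 (adjusted p = 0.016), with means of 21295 ± 15275 (SD, n = 4) in F/F naive and 660 ± 418 in DIEC naive. Of the 17 interferon response genes 5 rose and 0 fell with DSS in each genotype, with medians of 0.79 and 0.73. Over all genes 16.3% rose in F/F and 12.3% in DIEC, with medians of -0.11 and -0.24. After TMM 10 rose in DIEC, against 24.8% of all genes. With the deletion in DSS colon 1 rose, Irf1, an interferon-induced transcription factor (0.69 ± 0.14, adjusted p = 0.0017), where 3.28% of all genes rose.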

How the data were processed

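RNA of mouse colon was sequenced in 16 libraries, 4 per group. Per the submitters' processing notes, bcl2fastq, STAR 2.2.0c and HOMER 4.9 were used and the genome was mm10. Per the file headers, HOMER counted reads over all exons of mm9 gene models. Positions are the table's own, in mm9. These sources do not settle which build was aligned to. The counting option names a strand although the kit's standard form marks none, so an antisense partner could not be told apart, but no other gene's exon overlaps a member's exon in position in GENCODE M21.

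The deposited signal values are reads that the authors divided by 1 factor per library. In each library 100% of values were within 0.01 of whole multiples of 1 read (0.765 to 1.331), so reads were recovered. In F/F DSS 1, where a read was worth 1.007, only the high values allow this. Log2 fold changes and p-values of the authors' deposited comparisons were only copied. No source used here names the tool that made them. Gene length is that of the deposited table.

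Because the values are scaled, limma 3.58.1 in R 4.3.3 was used (eBayes, trend and robust) on log2(value + 1), for the 18267 of 24421 genes whose value reached 1 in 4 or more libraries, with Benjamini-Hochberg adjustment over all of them. Every adjusted p of a gene is from this test unless another tool is named. Shares of the gasdermin C copies were compared by exact permutation tests over libraries. The recovered reads were also tested with DESeq2 1.42.0, with limma voom and with the quasi-likelihood test of edgeR 4.0.16, on the 15695 genes that edgeR's filter kept. On those reads edgeR called 8421 genes for DSS in F/F, 9302 for DSS in DIEC, 490 and 2705 for the deletion in naive and DSS colon and 135 for the interaction. The tests across genes were tried on simulated data. Library totals in the headers were 25631586 to 42746008. No pair of libraries of a group was within sampling noise of each other.

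The members and the lists were chosen with earlier results of these data known. All members are described, then up to 4 called genes of smallest adjusted p per list and comparison, of which some are left out, and the nearest profiles among genes with a mean of at least 50. Zbp1, Nlrp6, Gsdma and Gsdmc fall outside this rule and were chosen after their values were seen. Promoters are from RefSeq. Matched there were Gsdmc3, Casp1, Casp4, Casp8, Ripk3 and Mlkl, 6 of 9.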

Additional observations from a re-analysis of the deposited data

Results flagged for a closer look

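In the library DIEC naive 1, Ripk3 was 713.55, against 895 to 922 in the other 3 libraries of the group. This was the single outlying value in 52 tests of a gene or share within a group of 4 (Dixon's test at 95%), and chance alone marks about 1 in 20. Without that library the calls of Ripk3 did not change.

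The response of Tnf to DSS was larger in DIEC than in F/F by 1.44 log2 units, by the test of the difference itself.

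The share of Gsdmc3 in the reads of the 3 gasdermin C copies changed in opposite directions with DSS, by 4.52 percentage points in F/F and by -4.13 in DIEC. The difference between these shares was not tested. For the level of Gsdmc3 the difference between the responses was -0.72 in log2 units (adjusted p = 0.11).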

How the results depend on the processing

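The 4 Gsdmd calls and the 5 calls with the deletion in DSS colon held under every setting tried for them. In the share tests without a replicate, 3 libraries against 4 cannot go below an exact permutation p of 0.0571. The choice of scaling mattered more than the pseudocount or the filter on low values. With no member below a value of 563 in any library, depth limits these values less than the 4 pools per group and the reads shared among the gasdermin C copies.

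With TMM, edgeR, DESeq2 and voom the change of Gsdmc2 with DSS in DIEC turned to 0.036, 0.044, 0.051 and 0.045, that of Casp4 with the deletion in DSS colon to 0.070, 0.084, 0.091 and 0.081, and the difference of the Casp1 responses to 0.040, 0.021, 0.024 and 0.049. None of these was called. The members called with DSS in DIEC became 5 under each of them. Genes called with the deletion in DSS colon fell from 5346 to 2509, 2705, 3071 and 2499. Genes called in the interaction went from 664 to 116 (TMM), 135 (edgeR) and 111 (voom). DESeq2 called 826 genes with the deletion in naive colon, against 408, with 3 members, and 3 members in the interaction. It also called the gasdermin C sum with DSS in DIEC (0.38). With only the compared groups in the fit, 2 members were called with the deletion in naive colon.

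Scaling to the epithelial markers, chosen after the data were seen, turned Mlkl with DSS in F/F to -0.075 and, with DSS in DIEC, Casp4 to -0.12, Casp8 to -0.12, Ripk3 to -0.031 and the gasdermin C sum to -0.058. It gave 6 members with DSS in F/F and 351 genes in the interaction. Without F/F naive 4, DIEC DSS 2 and DIEC DSS 3 together, also chosen after the data were seen, the sum with DSS in F/F was -0.49, Gsdmc4 and Mlkl with the deletion in naive colon were -0.18 and -0.018, and the counts were 6 members (DSS in F/F), 3 members (deletion in naive colon), 2412 genes (deletion in DSS colon), and 125 genes with 1 member (interaction).

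Of 24 pairs of same-numbered libraries 2 correlated above 0.1 (range -0.148 to 0.232), and 5 of 16 libraries correlated best with their own number. Both of those pairs joined F/F DSS to DIEC DSS, number 1 at 0.23 and number 2 at 0.21. Whether same-numbered pools share a source was not tested. With the replicate number as a block, 1247 genes and 3 members were called in the interaction and 2 members with the deletion in naive colon. More genes than in the main fit were called in every comparison, such as 5865 against 5346 for the deletion in DSS colon.

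Leaving out each replicate in turn gave 7279 to 8355 genes for DSS in F/F, 8893 to 9594 for DSS in DIEC, 233 to 470 and 4025 to 5845 for the deletion in naive and DSS colon and 144 to 1662 for the interaction. Members called were 3 to 6, 1 to 4, 1 to 3, 5 to 6 and 0 to 1 in that order. The sum ranged from -0.49 to -0.14, 0.08 to 0.23, -0.42 to -0.07, 0.15 to 0.30 and 0.27 to 0.62. Changes that crossed 0 were Casp1 with the deletion in DSS colon (-0.022 to 0.14), Casp4 with DSS in DIEC (-0.042 to 0.18), the Gsdmc2 interaction (-0.043 to 0.47), Gsdmc4 and Mlkl with the deletion in naive colon (-0.18 to 0.14 and -0.075 to 0.083) and Mlkl with DSS in F/F (-0.096 to 0.19). Share differences of Gsdmc2, Gsdmc3 and Gsdmc4 ranged from -3.75 to -0.792, 3.79 to 5.25 and -3.29 to -1.37 points (DSS in F/F), -4.82 to -4.06, -4.45 to -3.79 and 8.08 to 9.17 (DSS in DIEC), -9.25 to -6.29, -2.70 to -1.25 and 8.70 to 10.6 (deletion in naive colon) and -10.3 to -9.56, -11.3 to -9.89 and 19.8 to 21.2 (deletion in DSS colon).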
